A study of Mus musculus with 8 samples.

Results

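In the nucleus accumbens of cocaine mice 10 genes stood lower than in saline mice, and they were followed across 4 array hybridisations: Cbln2, Rspo2, Cadps2, Pcp4, Ubash3b, Lurap1l, Klf10, Midn, Smim43 and Tmem40. They are 10 of the 19087 genes with a symbol and of the 31334 genes and unnamed array features tested. The members were chosen by their cocaine over saline ratios in these same hybridisations as genes below 0 across the pairs of samples. Their cocaine ratios are therefore given as a description, with no test. The choice is a list of names and has no threshold, so no gene lies just inside or just outside it.

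The cocaine group was male mice that received cocaine (15 mg/kg) on each of days 2, 3 and 4 of conditioned place preference, a test in which animals come to prefer the place paired with a drug. The saline group was male mice that had saline solution on those days of the same test. The labels used here give no strain and no age. Each hybridisation set RNA of 1 cocaine code against 1 saline code on a whole-genome 2-colour array, and whether a code stands for a single mouse or for pooled tissue is not settled by the design text, which speaks of 4 nuclei per treatment and of more measurements than the 4 hybridisations analysed here. In 2 hybridisations, named cocaine in Cy5, the cocaine RNA had the dye Cy5, and in 2, named saline in Cy5, the saline RNA had it. Replicate numbers 1 and 2 within each orientation only name arrays. Both the Axon and the Agilent scanner read each array, giving 8 scans, and the mean of the pair of scans was used as 1 value, so n was 4.

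The nucleus accumbens is the ventral part of the striatum, and most of its neurons are medium spiny neurons that receive glutamate input from cortex, thalamus and amygdala and dopamine input from the midbrain. Cocaine blocks dopamine reuptake there, and drug and place cues change transcription of activity-regulated genes in its cells. The 10 genes do not form a single pathway. They encode secreted synaptic and Wnt ligands, a vesicle priming factor, signalling adaptors, nuclear proteins of the early response and small membrane proteins.

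A value is the log2 of cocaine over saline, so -1 means a level in cocaine mice at 50% of that in saline mice. The labels do not state this direction of the deposited columns, which is the likely one, and every sign below would turn if they ran the other way. The ratios carry a strong dye effect, whose coefficient had a median absolute value of 0.749 (log2) over all genes, against 0.133 for the cocaine coefficient. Ratios correlated across genes at r between 0.824 and 0.865 within a dye orientation and between -0.888 and -0.752 across orientations, as a description over genes that share arrays. Centred values are each scan minus its median. Dye-profile values are what remains of a centred scan after a smooth curve along the mean Cy5 over Cy3 ratio of the probes is taken away. Gene names rest on a spot layout recovered from the data, under which probes of the same accession had dye profiles correlated at r = 0.557 over 10349 pairs, against -0.00686 over 10328 pairs in plain probe order. Ratios hold no level, so neither the tissue's defining markers nor the abundance of any gene could be checked, and fewer cells of a type cannot be told apart from less RNA per cell.

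All 10 genes had a value in every scan and all 10 had a fitted ratio below 0. Their median fitted ratio was -0.73 in centred values and -0.84 in dye-profile values, against 0.03 and -0.000966 over all genes tested. Over all genes 43.4% were below 0 in centred values and 50.2% in dye-profile values. In centred values 5 of the 10, Cbln2, Rspo2, Cadps2, Smim43 and Tmem40, were below 0 in 4 of 4 hybridisations, as were 0.766% of all genes tested. In dye-profile values all 10 were, as were 9.5% of all genes. The shared dye curve ties the orientations together in those values, so 4 of 4 is not 4 separate agreements. In the fit by limma, 0 of the 10 passed an adjusted p of 0.05. The share of all genes that passed was 0.0255%, and 0.0223% passed in the lower direction. That contrast chose the genes, so nothing is read from these shares.

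**Figure D1:**
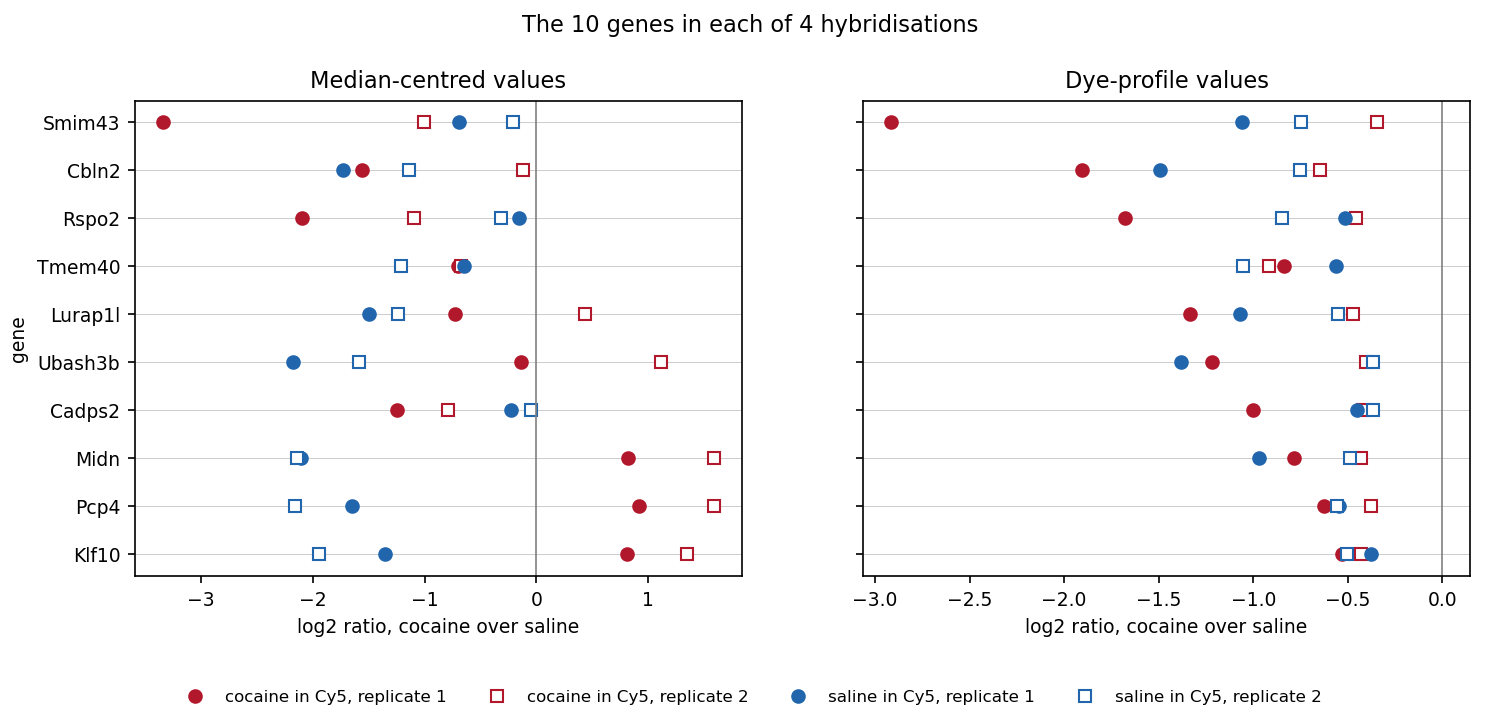
Log2 ratio of cocaine over saline (horizontal axis) of the 10 genes (rows) in each of 4 hybridisations, in centred values on the left and dye-profile values on the right; colours give the dye orientation and filled or open symbols the replicate. In centred values Klf10, Midn and Pcp4 lie between 0.81 and 1.59 with cocaine in Cy5 and between -2.16 and -1.35 with saline in Cy5, while in dye-profile values all 40 points lie below 0.

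Cbln2 encodes a secreted C1q-family protein that joins neurexins on the presynaptic side to delta-type glutamate receptors on the postsynaptic side. Its centred ratios were -1.56 and -0.12 with cocaine in Cy5 and -1.73 and -1.14 with saline in Cy5. The dye-profile ratios were -1.91, -0.65, -1.49 and -0.75 in the same order. Both orientations lay below 0, with the values nearest 0 in cocaine in Cy5 replicate 2. The fitted Cbln2 ratio was -1.14 ± 0.21 (limma SE, n = 4), a level in cocaine mice of 45.4% of that in saline mice. The array carries 3 probes for Cbln2, and their fitted ratios were -1.22, -1.16 and -1.03, although their dye profiles ran from -0.26 to 1.10. The probes with dye profiles of 1.07 and 1.10 were alike in dye behaviour, and the other had -0.26. All 3 went into the ratio that chose Cbln2, so their likeness adds no support.

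Rspo2 encodes R-spondin 2, a secreted ligand that amplifies Wnt signalling through LGR receptors. The centred ratios of Rspo2 were -2.10 and -1.10 with cocaine in Cy5 and -0.16 and -0.32 with saline in Cy5. All were below 0 and the orientations did not overlap, the cocaine in Cy5 arrays being lower. The dye-profile ratios of Rspo2 were -1.68, -0.45, -0.51 and -0.85, and there the orientations overlapped. The fitted ratio was -0.92 ± 0.19 (limma SE, n = 4), or 52.9% of the saline level.

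Cadps2 encodes CAPS2, a factor that primes dense-core vesicles for release of neuropeptides and neurotrophins. For Cadps2 the centred ratios were -1.25 and -0.79 with cocaine in Cy5 and -0.22 and -0.05 with saline in Cy5. The Cadps2 dye-profile ratios were -1.0005, -0.42, -0.45 and -0.36, with cocaine in Cy5 replicate 1 apart from the rest. The fitted Cadps2 ratio of -0.58 ± 0.17 (limma SE, n = 4), or 67.0% of the saline level, averages 2 probes that disagreed. The probe to NM_153163 had a fitted ratio of -1.02, and the probe to AK046596 one of -0.13. In dye-profile values the first was below 0 in every hybridisation, between -1.91 and -0.66, and the second lay between -0.19 and 0.02. The lower Cadps2 ratio was thus carried by the probe to the RefSeq transcript.

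Pcp4 encodes a small calmodulin-binding protein that speeds calcium exchange on calmodulin and is abundant in Purkinje cells and in several forebrain neurons. Centred ratios of Pcp4 were 0.91 and 1.59 with cocaine in Cy5 and -1.65 and -2.16 with saline in Cy5, so the sign followed the dye. The dye-profile ratios were -0.62, -0.38, -0.55 and -0.56. The fitted Pcp4 ratio was -0.33 ± 0.18 in centred values and -0.53 ± 0.10 in dye-profile values (limma SE, n = 4). These are 79.7% and 69.4% of the saline level. Here and below, the SE of dye-profile values leaves out the uncertainty of the dye curve, which was drawn from these same arrays.

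Ubash3b encodes STS-1, a phosphatase that damps signalling from tyrosine kinases of the Syk family. Ubash3b had centred ratios of -0.14 and 1.12 with cocaine in Cy5 and -2.17 and -1.58 with saline in Cy5, below 0 in 3 of 4. The dye-profile ratios were -1.22, -0.40, -1.38 and -0.37. The lower pair of Ubash3b values came from replicate 1 of each orientation. The fitted ratio was -0.69 ± 0.21 (limma SE, n = 4), or 61.8% of the saline level.

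Lurap1l encodes a relative of LURAP1, an adaptor that links the kinase MRCK to the actomyosin network. Lurap1l had centred ratios of -0.73 and 0.44 with cocaine in Cy5 and -1.5005 and -1.24 with saline in Cy5, below 0 in 3 of 4. The dye-profile ratios of Lurap1l were -1.33, -0.47, -1.07 and -0.55, again with the lower pair in replicate 1 of each orientation. The fitted ratio was -0.76 ± 0.20 (limma SE, n = 4), or 59.1% of the saline level.

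Midn encodes midnolin, a nuclear protein that carries products of early-response genes to the proteasome without ubiquitin, and Klf10 a zinc-finger factor first found as an early target of TGF-beta. Midn had centred ratios of 0.82 and 1.59 with cocaine in Cy5 and -2.11 and -2.14 with saline in Cy5. Klf10 had 0.81 and 1.35 with cocaine in Cy5 and -1.35 and -1.94 with saline in Cy5. For both genes the sign followed the dye, and on average the saline in Cy5 values lay farther from 0. Midn's dye-profile ratios were -0.79, -0.43, -0.97 and -0.49. Klf10's were -0.53, -0.43, -0.38 and -0.51, which spanned 0.15 on the log2 scale, the narrowest range of the 10 genes. The fitted centred ratios were -0.46 ± 0.18 for Midn and -0.28 ± 0.18 for Klf10 (limma SE, n = 4). In dye-profile values they were -0.67 ± 0.13 and -0.46 ± 0.10, or 62.9% and 72.6% of the saline level.

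Smim43 encodes a small integral membrane protein and had the ratio farthest from 0 among the 10. Smim43 had centred ratios of -3.34 and -1.01 with cocaine in Cy5 and -0.70 and -0.21 with saline in Cy5. The dye-profile ratios of Smim43 were -2.92, -0.35, -1.06 and -0.75, the widest range of the 10 genes at 2.57. In cocaine in Cy5 replicate 1 the 2 scanners differed for Smim43, with dye-profile ratios of -3.92 on the Axon and -1.91 on the Agilent scan. The fitted ratio was -1.32 ± 0.26 (limma SE, n = 4), or 40.2% of the saline level, and -0.73 without cocaine in Cy5 replicate 1. It rests on 1 probe, annotated to AK043581. The ratios of Rspo2, Pcp4, Ubash3b, Lurap1l, Midn and Klf10 also rest on 1 probe each.

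Tmem40 encodes a transmembrane protein of little known function. Its centred ratios were -0.70 and -0.67 with cocaine in Cy5 and -0.65 and -1.21 with saline in Cy5. The dye-profile ratios of Tmem40 were -0.84, -0.91, -0.56 and -1.06. Its range over hybridisations was 0.56 in centred and 0.49 in dye-profile values, and its dye coefficient of 0.12 was the smallest in size of the 10. The fitted ratio was -0.81 ± 0.18 (limma SE, n = 4), or 57.2% of the saline level. Its 2 probes had fitted ratios of -0.96 and -0.66.

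**Figure D2:**
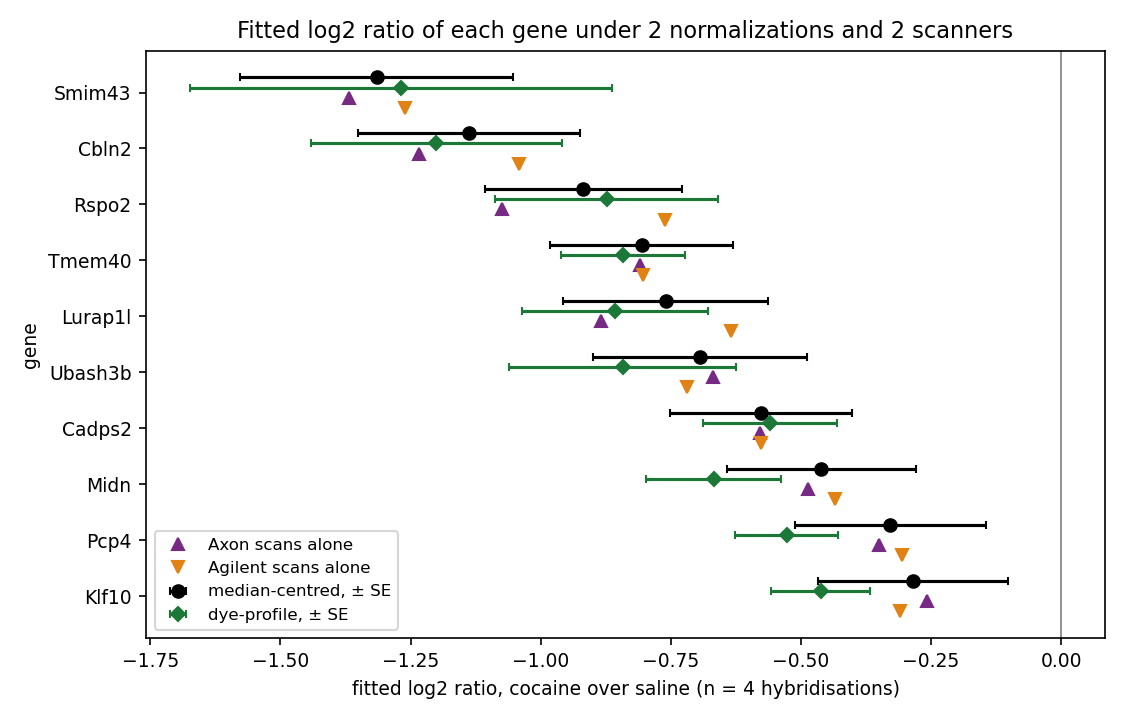
Fitted log2 ratio of cocaine over saline (horizontal axis) of each of the 10 genes (rows), as centred values and dye-profile values with limma SE bars (n = 4 hybridisations), and from the Axon or the Agilent scans alone. All scanner estimates lie below 0, from -1.37 for Smim43 on the Axon to -0.26 for Klf10 on the Axon.

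Both scanners gave fitted ratios below 0 for each of the 10 genes. Fitted from Axon scans alone the 10 ratios lay between -1.37 and -0.26, and from Agilent scans alone between -1.26 and -0.31. The largest scanner gap was for Rspo2, at -1.07 on the Axon and -0.76 on the Agilent. Single scans differed more, and in cocaine in Cy5 replicate 1 Rspo2 had dye-profile ratios of -2.36 on the Axon and -0.99 on the Agilent scan. Over all array positions the scans of an array correlated at r between 0.609 and 0.832, as a description. Over single scans, 61 of 80 centred and 80 of 80 dye-profile values of the 10 genes lay below 0. Both scans of an array read the same labelled RNA, so they are no added replicates. The 10 genes were also chosen on the means of these scans, so their signs by scanner and by scan support nothing. The share of all genes with such signs was not counted.

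The dye coefficient, positive towards Cy5, set apart 4 of the 10 genes. Midn at 1.66, Pcp4 at 1.58, Klf10 at 1.36 and Ubash3b at 1.18 had the most positive ones. With all genes ordered by this coefficient and cut into 10 equal bins, the median centred cocaine ratio was 0.175 in the top bin, which holds Midn, Pcp4 and Klf10, and 0.145 in the next, which holds Ubash3b. Relative to those medians the distances of these 4 genes are larger than their centred ratios. Smim43 at -0.86, Rspo2 at -0.68 and Cadps2 at -0.44 had coefficients towards Cy3, where the bins had medians of -0.061, -0.065 and -0.037. Cbln2 at 0.30, Lurap1l at 0.61 and Tmem40 at 0.12 lay between. A choice of genes below 0 across pairs bears on the dye coefficient too, so it is not tested here. For comparison, the mean Cy5 over Cy3 profile had a median of 1.90 over probes of ribosomal protein genes and of -0.97 over those of olfactory receptor genes.

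**Figure D3:**
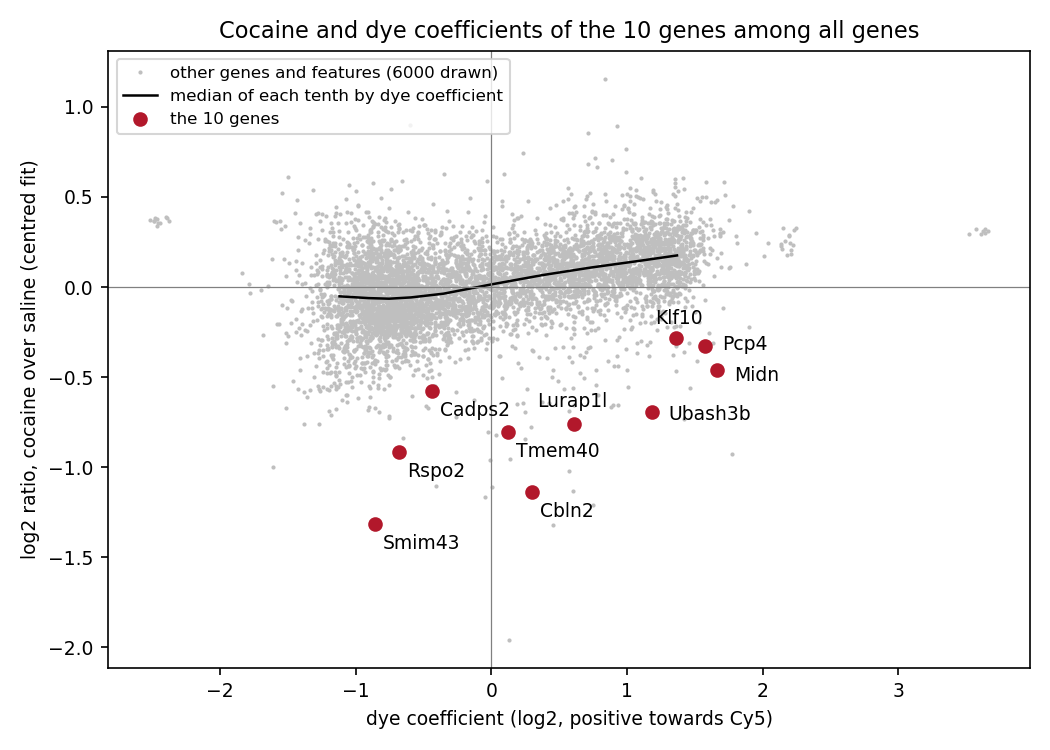
Fitted cocaine over saline log2 ratio from centred values (vertical axis) against the dye coefficient in log2 units (horizontal axis, positive towards Cy5) for the 10 genes in red and 6000 other genes and features in grey; the line joins the median ratios of 10 equal bins of all genes by dye coefficient. The line runs up to 0.175 in the top bin, and all 10 genes lie below it, from Klf10 at -0.28 to Smim43 at -1.32.

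The hybridisations did not contribute equally. In dye-profile values 7 of the 10 genes had their lowest ratio in cocaine in Cy5 replicate 1, 2 in saline in Cy5 replicate 1 (Midn and Ubash3b) and 1 in saline in Cy5 replicate 2 (Tmem40). In cocaine in Cy5 replicate 2, 6 of the 10 had their highest. The median over the 10 was -1.11 and -0.43 with cocaine in Cy5 and -0.77 and -0.56 with saline in Cy5. Without cocaine in Cy5 replicate 1 the centred median over the 10 was -0.46, against -0.73 with all hybridisations, and all 10 genes were still below 0. Without that array Smim43 stood at -0.73, Lurap1l at -0.47, Ubash3b at -0.38, Midn at -0.27, Pcp4 at -0.16 and Klf10 at -0.15, and these 6 ratios moved most relative to their size. Without saline in Cy5 replicate 2, Klf10 stood at -0.14 and Pcp4 at -0.20. Leaving out cocaine in Cy5 replicate 2 gave -0.50 for Pcp4, and leaving out saline in Cy5 replicate 1 gave -0.43 for Klf10. Over the 4 such fits the other genes lay between -1.4985 and -0.78 (Cbln2), -1.17 and -0.67 (Rspo2), -0.95 and -0.67 (Tmem40) and -0.69 and -0.46 (Cadps2).

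Promoter windows of 7 of the 10 genes were taken from the RefSeq table (build GRCm38.p6). Each ran from 250 bases before to 50 after a transcription start and was written along the gene's strand. For the 10 genes, windows on 1 chromosome were left out, while the shares over all promoters kept that chromosome. No window was searched for Cbln2, Rspo2 or Klf10. The windows of the 7 genes were searched on both strands for 8 motifs. These were motifs of factors tied to neuronal activity or to cortical identity, and the GC box, which many promoters hold. The full cAMP response element TGACGTCA (1.79% of 32817 promoter windows), the EGR site GCGTGGGCG (0.612%) and the T-box core TCACACCT (1.27%) were in none of the 10 windows of these genes. The short core of the cAMP response element, TGACG, which is contained in the full element, was in 2 of 10 windows, against 20.8% of all promoter windows. The AP-1 site TGANTCA was in 1 (7.81% of all), the NeuroD-type E-box CAGATG in 1 (17.2%) and the GC box GGGCGG in 5 (35.6%). A serum response element core, searched as CC, any base, TAT, any 2 bases and GG, was in 1 (1.54%). The shares in so few windows are a description, and a match of letters is no site of binding.

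The 4 windows that hold a match other than the GC box are shown, since they are the ones on which the search turned. They belong to the early-response gene Midn, the adaptor gene Lurap1l and 2 starts of Tmem40. Capitals mark the matches, TGACG (read as CGTCA on the other strand) and CAGATG (read as CATCTG) in Midn, the serum response element core on the other strand in Lurap1l, and TGANTCA and TGACG in the first and second start of Tmem40. The windows are chr10:80148022-80148321 on the plus strand, chr4:80910436-80910735 on the plus strand, and chr6:115762417-115762716 and chr6:115758950-115759249 on the minus strand.
Midn promoter: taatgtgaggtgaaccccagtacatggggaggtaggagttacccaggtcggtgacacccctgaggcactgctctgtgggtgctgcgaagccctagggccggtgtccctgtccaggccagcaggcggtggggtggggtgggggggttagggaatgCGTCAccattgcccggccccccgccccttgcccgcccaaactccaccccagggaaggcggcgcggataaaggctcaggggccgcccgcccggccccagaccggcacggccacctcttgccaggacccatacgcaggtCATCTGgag
Lurap1l promoter: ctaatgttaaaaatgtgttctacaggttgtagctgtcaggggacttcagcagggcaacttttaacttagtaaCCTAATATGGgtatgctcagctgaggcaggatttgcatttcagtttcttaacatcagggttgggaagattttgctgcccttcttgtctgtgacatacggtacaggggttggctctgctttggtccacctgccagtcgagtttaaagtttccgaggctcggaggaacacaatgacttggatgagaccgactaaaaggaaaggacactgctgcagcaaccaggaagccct
Tmem40 first promoter: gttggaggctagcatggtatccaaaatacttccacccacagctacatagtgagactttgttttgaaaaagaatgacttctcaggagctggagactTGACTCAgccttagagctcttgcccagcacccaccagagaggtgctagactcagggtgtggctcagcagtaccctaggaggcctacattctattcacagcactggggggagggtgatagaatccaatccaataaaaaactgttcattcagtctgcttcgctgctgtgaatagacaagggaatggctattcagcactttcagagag
Tmem40 second promoter: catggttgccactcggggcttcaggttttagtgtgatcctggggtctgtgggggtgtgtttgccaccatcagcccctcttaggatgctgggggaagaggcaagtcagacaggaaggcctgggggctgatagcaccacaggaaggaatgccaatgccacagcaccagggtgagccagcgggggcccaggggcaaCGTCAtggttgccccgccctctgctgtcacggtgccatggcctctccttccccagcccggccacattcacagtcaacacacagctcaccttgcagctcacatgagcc

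Counted in bases from the start, the cAMP response core of Midn began at -96, upstream of 4 GC boxes, and that of the second Tmem40 window at -57. The serum response element core of Lurap1l began at -178 and the AP-1 site of the first Tmem40 window at -155. Midn's second annotated start, Cadps2 and Smim43 held the GC box alone, and neither Pcp4 nor either start of Ubash3b held any of the 8 motifs.

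Relatives of the 10 genes were followed where a gene has a family on the array. Among cerebellins, Cbln1 stood at -0.19 ± 0.19, Cbln3 at -0.18 ± 0.19 and Cbln4 at 0.30 ± 0.17, beside -1.14 for Cbln2 (limma SE, n = 4). The C1q-like genes C1ql1, C1ql2 and C1ql3, which encode related secreted synaptic proteins, stood at -0.29, 0.17 and -0.31. Among R-spondins, Rspo1 stood at -0.01 ± 0.22, Rspo3 at -0.27 ± 0.18 and Rspo4 at -0.01 ± 0.17. These relatives lay nearer to 0 than Cbln2 and Rspo2, whose own ratios chose them, and the difference was not tested.

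Cadps, the other CAPS gene, stood at -0.44 ± 0.22, and in dye-profile values at -1.28 and 0.01 with cocaine in Cy5 and -0.69 and -0.34 with saline in Cy5. Its fitted ratio may be set beside that of Cadps2 at -0.58, which averages probes at -1.02 and -0.13. Pcp4l1 stood at 0.14 ± 0.18, Ubash3a at -0.32 ± 0.19 and Lurap1 at 0.20 ± 0.18. Of the 15 other KLF factors, 9 were below 0 and 0 passed, with Klf1 at -0.47 ± 0.20 and Klf16 at 0.50 ± 0.19 farthest from 0.

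**Figure D4:**
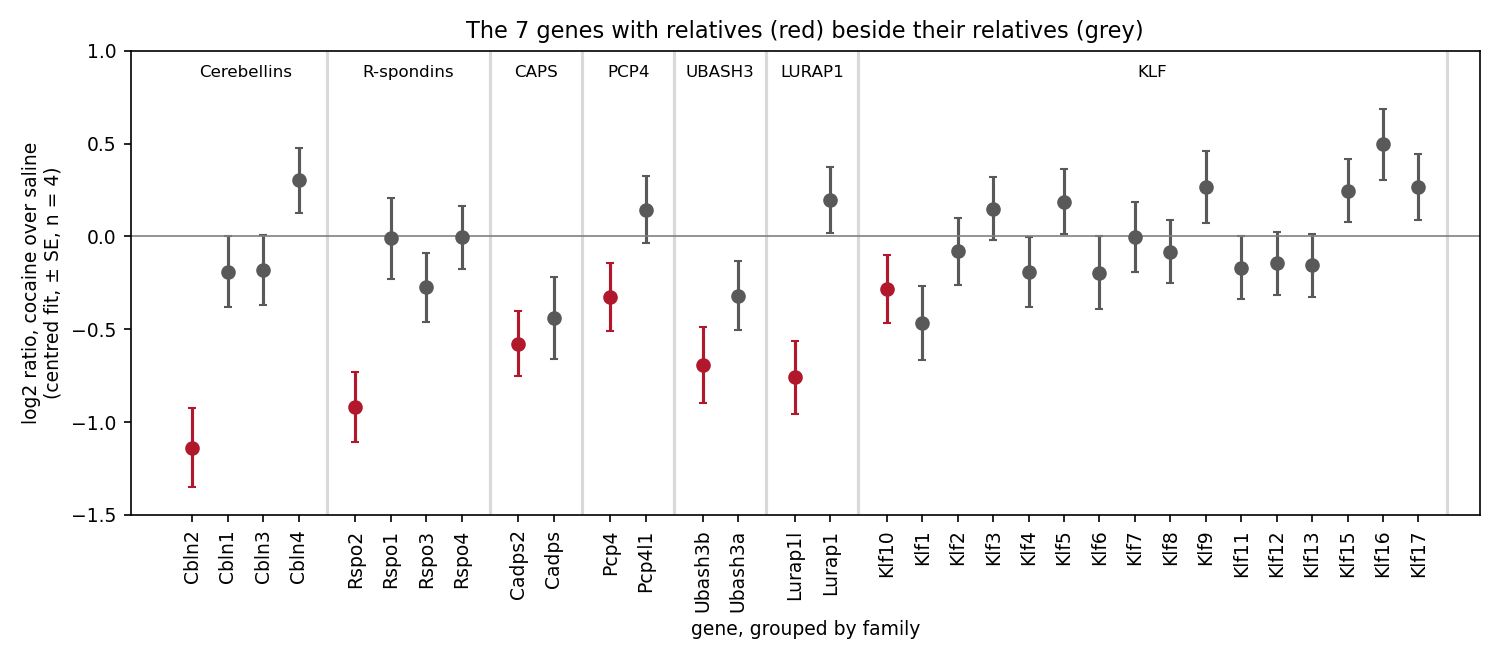
Fitted log2 ratio of cocaine over saline from centred values with limma SE bars (n = 4 hybridisations) for 7 of the genes in red and the members of their families in grey. Cbln2 at -1.14 and Rspo2 at -0.92 lie below their 3 relatives each, while Cadps at -0.44 and Ubash3a at -0.32 lie nearer their partners. The point for Cadps2 averages probes that disagreed, at -1.02 and -0.13.

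Other genes of the same pathways are counted without the 10 genes, against the 43.4% of all genes that were below 0 in centred values, and 0 of them passed the adjusted p of 0.05. Of 9 other cerebellin, C1q-like, neurexin and delta receptor genes measured, 6 were below 0, with a centred median of -0.04 and a dye-profile median of -0.12. Nrxn3, a presynaptic neurexin, stood at 0.37 ± 0.17. Of 24 other R-spondin, receptor and Wnt feedback genes, 15 were below 0, with medians of -0.03 in centred and -0.04 in dye-profile values. Of 17 other genes of dense-core vesicle priming, cargo and processing, 6 were below 0, and the median was 0.04 in centred but -0.03 in dye-profile values. With Cadps2 counted, 7 of 18 were below 0 in centred and 12 of 18 in dye-profile values. Baiap3, a priming factor, stood at 0.53 ± 0.18. Of 11 other calmodulin and calmodulin-binding genes, 2 were below 0, and the median was 0.11 in centred but -0.03 in dye-profile values. With Pcp4 counted, 3 of 12 were below 0 in centred and 7 of 12 in dye-profile values. The direction of both these lists thus turned with the scaling. Camk4, a calmodulin-dependent kinase, stood at 0.55 ± 0.18 and Nrgn, which encodes neurogranin, at -0.47 ± 0.20. Of 9 other genes around Ubash3b, 3 were below 0, with medians of 0.05 in centred and 0.04 in dye-profile values, and Cd2ap stood at 0.34 ± 0.17. Of 6 other genes around Lurap1l, 1 was below 0, with medians of 0.16 in centred and 0.08 in dye-profile values, and Myo18a, the myosin partner of LURAP1, stood at 0.29 ± 0.18.

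Early genes that neurons transcribe on activity, a list that holds Klf10 and Midn, were below 0 for 20 of 27 members with a median of -0.19, and 0 passed. Without Klf10 and Midn, 18 of 25 were below 0 and the median was again -0.19. In dye-profile values the list median was -0.33, with -0.34 and -0.25 for cocaine in Cy5 and -0.20 and -0.40 for saline in Cy5. Nr4a2, an orphan nuclear receptor of the early response that is also a marker of claustrum and deep cortex, stood at -1.16 ± 0.22.

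Markers of other cells were measured beside the 10 genes. Of 24 cortical and claustral projection neuron markers measured, 17 were below 0 with a median of -0.24, and 3 passed by limma in the lower direction, as did 0.0223% of all genes tested. These were Tbr1 at -1.45 ± 0.18 (adjusted p = 0.00602), Nrn1 at -1.71 ± 0.24 (adjusted p = 0.0143) and Neurod6 at -1.13 ± 0.19 (adjusted p = 0.0375), each n = 4. With the dye-profile loess, Axon scans alone, no dye term or limma trend and robust, 0 genes passed, these 3 included. The list was drawn up with earlier results of these data known, so its calls beside that share are a description. The dye-profile medians of this list were -0.30 and -0.28 with cocaine in Cy5 and -0.45 and -0.12 with saline in Cy5, with 18, 19, 18 and 15 of 24 below 0. Nrn1, the gene for neuritin, had -2.69 and -0.93 with cocaine in Cy5 and -2.11 and -1.30 with saline in Cy5, and it was lower in replicate 1 of each orientation than in either replicate 2. Of the 10 genes, Cbln2, Lurap1l, Ubash3b, Midn, Smim43 and Cadps2 had that order too. Replicate numbers only name arrays, and the share of all genes with that order was not counted, so nothing is read from it. Tbr1 did not share that order, at -1.21, -1.73, -1.51 and -1.31. The part of cortical or claustral tissue in the ratios of the 10 genes was not tested.

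Oligodendrocyte markers had a dye-profile median of -0.53 and 0.15 with cocaine in Cy5 and -0.44 and -0.13 with saline in Cy5, with 9, 3, 9 and 6 of 9 below 0. Over all hybridisations 8 of 9 were below 0 in centred values, with a median of -0.24. Trf, which encodes transferrin, stood at -0.45 ± 0.24 and Aspa, an enzyme of myelinating cells, at -0.39 ± 0.19. Fitted ratios of medium spiny neuron markers lay above 0, with 0 of 13 below it and a centred median of 0.36. Their dye-profile medians were 0.30 and 0.04 with cocaine in Cy5 and 0.26 and 0.10 with saline in Cy5. In the same order 0, 5, 1 and 4 of 13 were below 0. Ppp1r1b, the gene for DARPP-32, stood at 0.69 ± 0.19 and Adcy5, a striatal adenylyl cyclase, at 0.61 ± 0.20. The medians of both these lists, like that of the 10 genes, lay farthest from 0 in replicate 1 of each orientation. So did those of projection neuron, striatal interneuron, endothelial and olfactory bulb markers. Those of astrocyte, microglia, choroid plexus and septal, thalamic and pallidal markers did not. Replicate numbers only name arrays, so nothing is read from this order. No oligodendrocyte or medium spiny neuron marker passed the adjusted p of 0.05. The part of these cells in the ratios of the 10 genes was not tested.

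**Figure D5:**
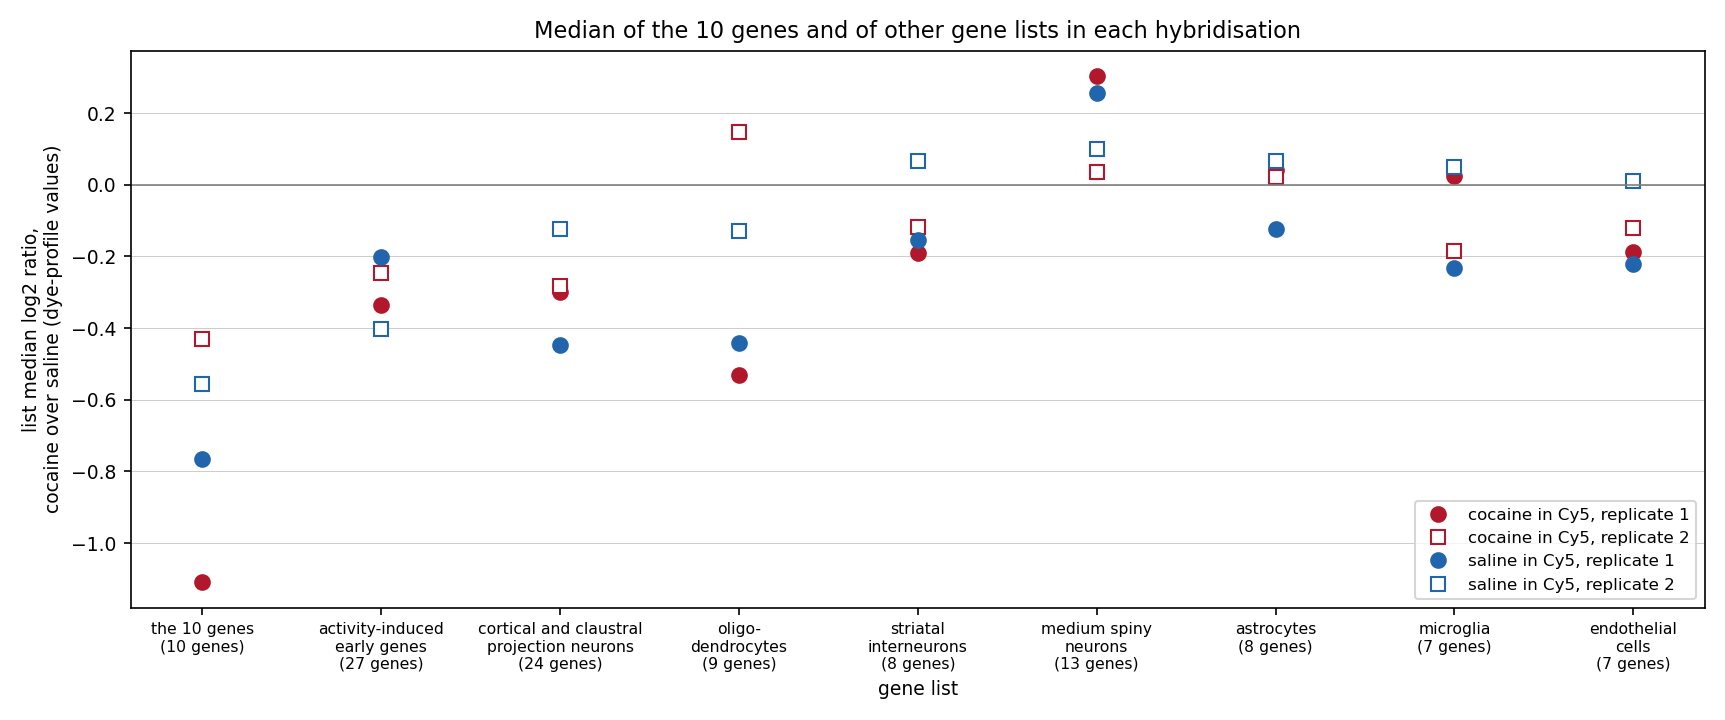
Median log2 ratio of cocaine over saline in dye-profile values (vertical axis) of the 10 genes and of 8 other gene lists in each of 4 hybridisations; colours give the dye orientation and filled or open symbols the replicate. The 10 genes lie between -1.11 and -0.43, medium spiny neuron markers between 0.04 and 0.30, and oligodendrocyte markers between -0.53 and 0.15.

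Other marker lists had centred medians nearer to 0, and 0 of their members passed. Striatal interneuron markers had a median of -0.09 over 8 genes, with Pvalb, the parvalbumin gene, at -0.74 ± 0.26 and Th, the tyrosine hydroxylase gene, at 0.40 ± 0.20. Medians were 0.09 for 8 astrocyte markers (Aldh1l1 at 0.33 ± 0.18, Aldoc at 0.23 ± 0.18) and 0.01 for 7 microglia markers (Trem2 at 0.23 ± 0.17, Tmem119 at 0.10 ± 0.17). They were -0.03 for 7 endothelial markers (Kdr at -0.30 ± 0.17, Esam at 0.18 ± 0.18) and -0.03 for 6 choroid plexus and ependyma markers (Clic6 at 0.37 ± 0.17, Folr1 at -0.25 ± 0.17). Septal, thalamic and pallidal markers had a median of 0.07 over 10 genes, with Dlk1 at 0.67 ± 0.18 and Trpc4 at -0.32 ± 0.17. Olfactory bulb projection neuron markers had a median of -0.09 over 4 genes, with Cdhr1 at -0.13 ± 0.19 and Tbx21 at -0.11 ± 0.17. In dye-profile values the sign of 4 of these medians turned, to -0.01 for astrocytes, -0.11 for microglia, 0.02 for choroid plexus and ependyma and -0.02 for septal, thalamic and pallidal markers.

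For each of the 10 genes, the gene with the most similar centred ratios was taken as the one with the smallest root mean square difference over 4 hybridisations. Rspo2 lay nearest to Neurod6, a transcription factor of cortical pyramidal neurons, at a difference of 0.218 on the log2 scale. Smim43 lay nearest to Cck, the cholecystokinin gene, at 0.564, and Pcp4 to the MAP kinase phosphatase gene Dusp6 at 0.126. Ubash3b lay nearest to the nuclear RNA Neat1 at 0.0914, Midn to the prostaglandin D synthase gene Ptgds at 0.158, and Klf10 to Stac3 at 0.10. The remaining pairs were Cadps2 with Cibar2 at 0.113, Lurap1l with Tonsl at 0.223, Tmem40 with C5ar2 at 0.330 and Cbln2 with Cidea at 0.449. With so strong a dye effect, likeness over 4 ratios reflects like dye coefficients as well as like cocaine ratios. The fitted ratios of these nearest genes ran from -1.13 for Neurod6 and Cck to -0.22 for Stac3. All were below 0, which follows from their choice by like values and adds nothing. Cbln2, Smim43 and Tmem40 had no close neighbour, with differences of 0.33 or more.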

How the data were processed

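Nucleus accumbens RNA (75 ng aliquots, amplified and labelled, per the labels' protocols) was read on 2-colour arrays by 2 scanners. The values the authors deposited are log2 ratios of the channels, 44290 rows in each of 8 scans. How images were read, background handled and values normalized is not given in the sources used here, nor is a genome build. The log2 base was read from the deposited values, and 4 to 37 stop values of 16.61 in size per scan were treated as missing. Axon minus Agilent differences correlated at r = 0.515 and 0.516 within and between -0.542 and -0.493 across dye orientations, so the columns were read as already turned to 1 treatment direction. Column medians lay between -0.885 and -0.617 with cocaine in Cy5 and between 0.637 and 0.823 with saline in Cy5. No intensities were used, so signal over background is unknown and the number of arrays limits the precision.

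Rows were named through the recovered layout and the platform annotation: 32042 had 1 gene symbol, 47 several (not named) and 12201 none. Of the named rows 31906 matched the RefSeq gene table by identifier, and 0 symbols needed an update. Scans were centred on their median, probes averaged per symbol and scans per hybridisation. limma 3.58.1 (R 4.3.3; lmFit, eBayes) fitted a cocaine and a dye coefficient over all 31334 genes with 2 residual degrees of freedom, two-sided with Benjamini-Hochberg adjustment. The fit was tested on simulated data. Dye-profile values were residuals of loess (span 0.3, 4 iterations) along the mean Cy5 over Cy3 ratio of the Agilent scans, with orientations balanced, and covered 31300 genes. The members, gene lists and motifs were chosen with earlier results of these data known. Named genes were the members, their family relatives, every list gene past the threshold, the 2 of smallest p in each list and the nearest gene of each member. Where labels do not say that codes are separate animals, p-values measure only the spread between arrays.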

Additional observations from a re-analysis of the deposited data

Results flagged for a closer look

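Of 20 sets of 4 hybridisation values of the 10 genes, 2 held a value that stood apart from the other 3 by Dixon's criterion (the gap to the nearest value over the range, above its 95% critical value), and chance alone gives about 1 in 20. Cadps2 in dye-profile values stood at -1.0005 in cocaine in Cy5 replicate 1, against -0.45 to -0.36 in the other 3 (gap over range 0.865). Tmem40 in centred values stood at -1.21 in saline in Cy5 replicate 2, against -0.70 to -0.65 (gap over range 0.908). In dye-profile values Tmem40 had a gap over range of 0.556, and in centred values Cadps2 had 0.383.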

How the results depend on the processing

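The 10 fitted ratios, of genes chosen as below 0 on these same values, were below 0 under each of 12 alternatives. The 120 values so obtained moved by less than 1 residual SD of their gene. With no dye term, with limma trend and robust, and with genes valued in all 8 scans, each of the 10 ratios was unchanged. In this design leaving out 1 hybridisation cannot move a ratio by 1 residual SD. Nothing is therefore read from these signs or that limit. Over all genes, the count past the adjusted p of 0.05, 8 in centred values, did depend on the processing. It was 97 with no centring, 30 with the median over probes and 20 with Agilent scans alone. It was 0 with the dye-profile loess (limma, 2278 at an unadjusted p below 0.05), 0 with Axon scans alone (1585), 0 with no dye term (24) and 0 with limma trend and robust (355). It was 288 without cocaine in Cy5 replicate 1, 148 without replicate 2 of that orientation, 91 when saline in Cy5 replicate 1 was left out and 66 for its replicate 2, each time with all 8 among them, and the cause was not tested. Of the 10 genes, Smim43 and Cbln2 passed with the median over probes, Smim43 with Agilent scans alone, Tmem40, Rspo2, Smim43 and Cbln2 with no centring, and between 0 and 5 when 1 hybridisation was left out. That contrast chose the genes, so these calls support nothing. The median over the 10 lay between -0.91 and -0.46 when 1 hybridisation was left out, with -0.46 without cocaine in Cy5 replicate 1. Labels give no replicate numbers that pair arrays, and each ratio already sets cocaine against saline on 1 array. With 4 arrays and no intensities, what depth allows is unknown.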
